A study of Mus musculus with 12 samples.

Results

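The genes described here encode the machinery that copies DNA and the enzymes that make its building blocks. The list held 43 genes, taken by symbol from the 24421 genes in the count files, and all 43 were among the 11638 genes with enough reads to be tested. They were followed in B16F10, a mouse melanoma cell line, in which every library came from this 1 line. Control cells received DMSO, the solvent of DAC, at a share that the labels give as 0.025% for the control wells of the dose tests. The study's methods give a lower share for these wells and have SFN dissolved in water. DAC (5-aza-2'-deoxycytidine, a nucleoside analog that blocks DNA methylation after it is built into DNA) was given alone at 25 nM for 72 h. SFN (sulforaphane, an isothiocyanate from cruciferous vegetables) was given alone for the last 48 h, and in the combination treatment (DAC+SFN) the cells had DAC at 25 nM for 72 h with SFN added for the last 48 h. The labels write the SFN dose as 5 nM alone and 5 µM in combination, while the study's methods give the micromolar dose for both, so by the labels the SFN doses of these groups differ. Each of the 4 groups had 3 independent repeats, numbered 1 to 3.

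Replication starts when the origin recognition complex, with Cdc6 and Cdt1, loads the MCM helicase onto DNA before S phase. Cdc45 and the GINS complex join MCM to make the active helicase, primase and the DNA polymerases synthesise the new strands, and PCNA, a ring loaded by the RFC complex, holds the polymerases on the template. Many of these genes are transcribed as cells enter S phase under E2F transcription factors, and their products mark dividing cells in tumours, melanoma among them.

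Promoter stretches with E2F words are shown because E2F factors are known to bind such words in genes of S phase. RefSeq promoters on GRCm38.p6, from 250 bases before to 50 after the start, were found for 35 of the 43 members. The words searched on both strands were TTTCCCGC, TTTCGCGC, TTTGCCGC and TTTGGCGC. In 13 of the 35 members (37.1%) at least 1 promoter held a word, beside 4.84% of the 8966 tested genes with a promoter in the table. Counted by promoter, the share was 32.5% of the members' 40 promoters and 3.96% of the 11510 promoters of tested genes. It was 2.26% of all 32851 promoters of this length. In 8 of the 13 members a word lay before the start. Stretches of 30 bases around a word are given 5′ to 3′ on the strand of the gene, with the words in capitals. The word shown for Lig1 lies at positions 27 to 34 after the start of promoter 2 of its 3. That of Cdt1 lies at positions 33 to 40 after the start. The stretches of Mcm7, Rfc3, Lig1 and Cdt1 belong to members described in full below, those of Mcm5 and Mcm6 hold a pair of overlapping words on opposite strands, and that of Rfc3 holds a pair that does not overlap.
Mcm7, chr5:138172030-138172059, minus strand: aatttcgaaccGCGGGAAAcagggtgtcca
Rfc3, chr5:151651200-151651229, minus strand: acgtcgcacgcTTTCGCGCtcGCGGGAAAa
Lig1, chr7:13278841-13278870, plus strand: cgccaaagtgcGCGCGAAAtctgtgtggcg
Cdt1, chr8:122568035-122568064, plus strand: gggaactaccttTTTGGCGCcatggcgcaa
Mcm5, chr8:75109347-75109376, plus strand: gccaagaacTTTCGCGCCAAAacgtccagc
Mcm6, chr1:128359795-128359824, minus strand: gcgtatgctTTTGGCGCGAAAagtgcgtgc
The shares of promoters with other words known from cell cycle genes lay closer to those of all tested genes. CCAAT was found in 60% of the members with a promoter and in 43.5% of the tested genes, and TTTGAA or TTCGAA in 20% and 16% of them. These matches describe letters in a window and say nothing of whether a factor was bound.

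Between 15880957 and 27291436 reads per library were counted on genes, and no member had fewer than 240 counts in any library. The list took 0.656% ± 0.0391 (SD, n = 3) of all counts in control and 0.528% ± 0.0343 in the combination treatment, with 0.603% ± 0.0362 after DAC and 0.617% ± 0.0277 after SFN. Nqo1, a quinone reductase gene that SFN is known to induce, had 5.62 to 10.6 CPM (read counts relative to the scaled library total) in the 6 libraries without SFN and 33.2 to 38.6 CPM in the 6 with it. All 7 melanocyte genes checked, such as Tyr and Pmel, were expressed in every library, while 7 of 11 markers of other cell types, Ptprc, Cd3e, Dcn, Cdh5, Epcam and Krt5 among them, were at or near 0 and too low to be tested. Of the other 4, the collagen gene Col1a1 followed the replicate number, at 61.5 to 90.3 CPM in replicate 1, 15.6 to 24.1 CPM in replicate 2 and 245 to 356 CPM in replicate 3. The macrophage gene Cd68 followed the treatment at a low level, 2.31 to 4.77 CPM in control, 3.93 to 5.68 CPM with DAC, 6.16 to 8.99 CPM with SFN and 8.26 to 11.2 CPM with both drugs. Pdgfra, a gene of fibroblasts, went the other way, at 2.28 to 2.99 CPM in control, 1.53 to 2.25 CPM with DAC, 1.22 to 1.76 CPM with SFN and 1.23 to 1.82 CPM with both drugs. Col1a2, another collagen gene, overlapped between groups, at 2.06 to 6.57 CPM in control and 2.41 to 3.92 CPM with both drugs. The list summed to 24.9 to 323 CPM in control and 40.1 to 260 CPM with both drugs, and without Col1a1 to 8.41 to 11.4 CPM and 13.5 to 16.1 CPM. The part of these genes in the results was not tested. In bulk RNA, fewer cells of a kind and less RNA per cell cannot be told apart.

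Per kilobase of transcript, the levels of the members in control spanned a wide range. Pcna was highest at 294 ± 9.57 RPKM (CPM per kilobase of transcript, SD, n = 3), followed by Rrm2, the small subunit of ribonucleotide reductase, at 286 ± 27.5 RPKM. These neighbours did not differ beyond their spread. Mcm2 followed at 166 ± 15.4 RPKM and Rrm1 at 131 ± 12.2 RPKM. The lowest were Gins2 at 5.51 ± 0.603 RPKM and E2f2 at 4.29 ± 0.0678 RPKM.

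Compared to control, the combination treatment lowered most of the list. At an adjusted p-value under 0.05 (edgeR's quasi-likelihood test over all 11638 genes), 37 of the 43 members fell, 1 rose and 5 did not pass. Of all genes tested, 14.7% fell and 17.0% rose. The median log2 fold change of the members was -0.34, a fold of 0.789, beside 0.008 for all genes, and 42 of 43 estimates were below 0. All 3 combination libraries lay below all 3 control libraries for 36 members, a pattern seen in 14.3% of all genes. The changes were small, from a log2 fold change of -0.83 for Gins1 to 0.18 for Ccne1, and no member changed more than 2-fold. The map of values by library shows these small shifts gene by gene, next to the differences between repeats.

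**Figure D1:**
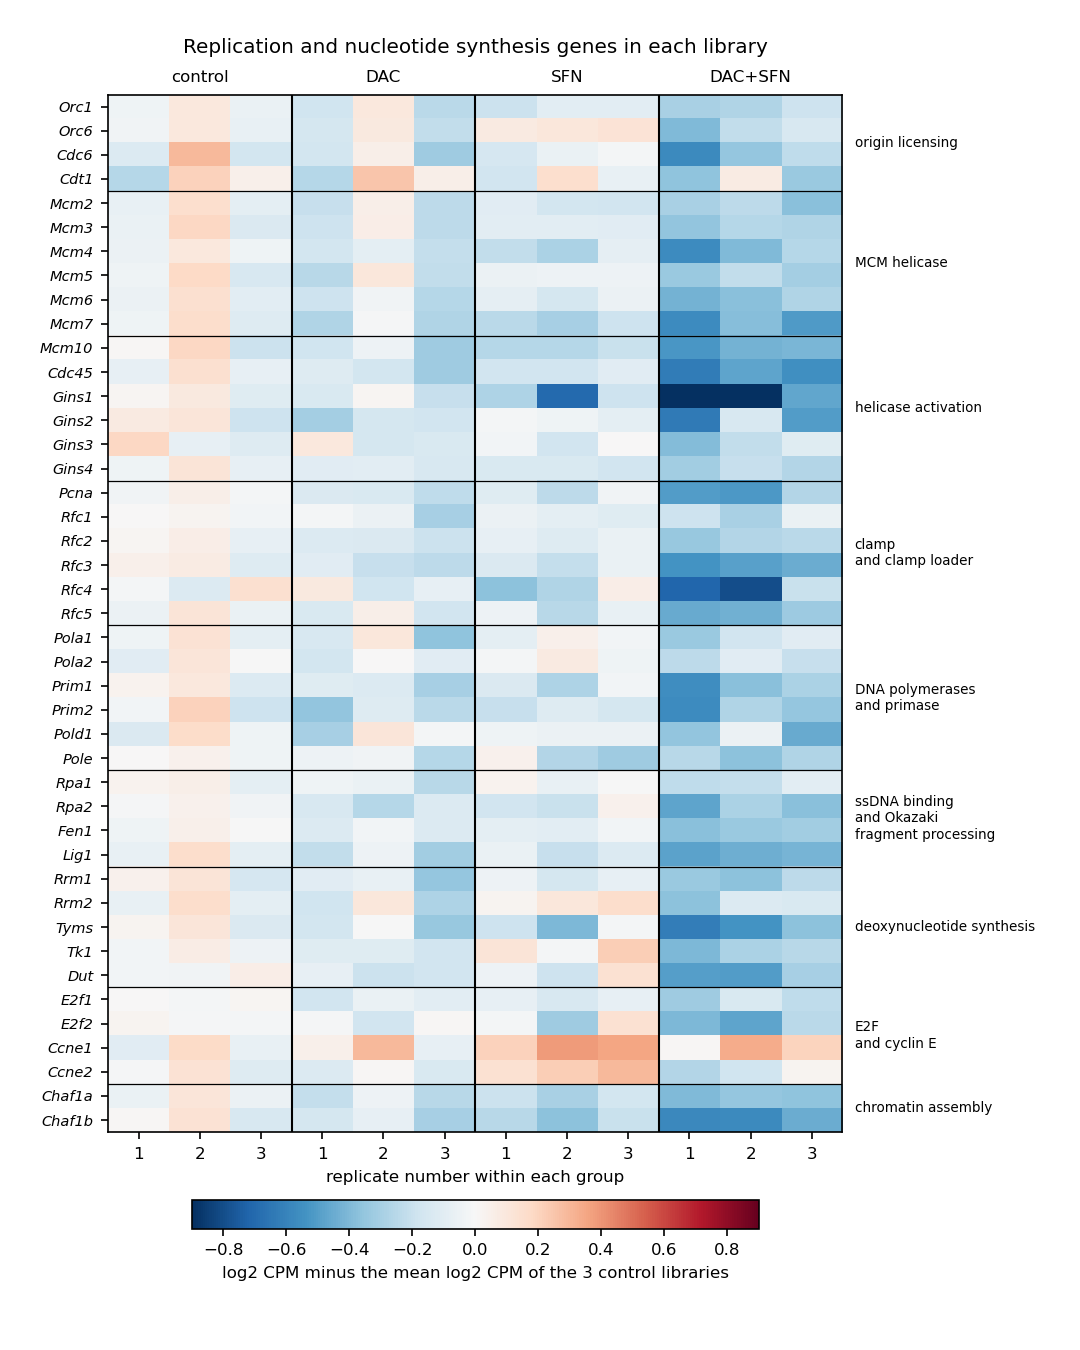
Each row is a gene, ordered by role, and each column a library; color gives log2 CPM minus the mean log2 CPM of the 3 control libraries, and values past the ends of the scale take its end color. The combination libraries are below all 3 control libraries for 36 of the 43 genes.

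When replicate 1 was left out of all 4 groups, 17 members passed in this comparison, with 12.7% of all genes in either direction, where the full fit called 31.6%. In a model with no term for the replicate number, 24 members passed, with 10.3% of all genes. Of the 38 members called, 15 kept the call in all 18 alternatives to scaling, filter, samples, model and tool, and 33 kept it in those with every replicate and the replicate number.

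Of the origin licensing genes, all 4 (Orc1, Orc6, Cdc6 and Cdt1) fell with the combination treatment, with log2 fold changes from -0.38 (Cdc6) to -0.21 (Cdt1). Cdt1 (Entrez Gene 67177, chromosome 8 from 122568015 to 122573554, plus strand, mm10) recruits MCM to origins and had 98.9, 136.4 and 122.2 CPM in control replicates 1, 2 and 3. The treated libraries had 98.7, 140.4 and 122.6 CPM with DAC, 105, 131.3 and 113 CPM with SFN, and 91.9, 124.3 and 93.6 CPM with both drugs. Replicate 2 was the highest in every group, and the combination libraries overlapped the controls. Within repeats the combination was lower each time, and Cdt1 fell by 0.21 on the log2 scale (SE 0.06, adjusted p = 0.0241), a call kept in 10 of 18 alternatives. Orc6, a subunit of the origin recognition complex, had a log2 fold change of 0.10 with SFN (adjusted p = 0.395) and -0.25 with both drugs (adjusted p = 0.0194), and it was lower with both drugs than with SFN (-0.35, SE 0.07, adjusted p = 0.0365).

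The 6 MCM genes, which encode the ring of the replicative helicase, all fell with the combination treatment, with log2 fold changes from -0.49 to -0.29 and a median of -0.33. Mcm7 (Entrez Gene 17220, chromosome 5 from 138164583 to 138172422, minus strand) fell the furthest. Its values were 231.1, 264.5 and 218.7 CPM in control, 196.8, 236 and 196.9 CPM with DAC, 200.2, 192.8 and 208.6 CPM with SFN, and 160.1, 182 and 166.4 CPM with both drugs. All 3 SFN libraries were below all 3 controls, and the combination libraries were below each of the other 9. Mcm7 fell by 15.4% with SFN (log2 fold change -0.24, SE 0.07, adjusted p = 0.0292) and by 28.7% with both drugs (-0.49, SE 0.07, adjusted p = 0.000132). The microRNA genes Mir25 and Mir93 lie within its annotated exons.

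Mcm4 (Entrez Gene 17217, chromosome 16 from 15623897 to 15637400, minus strand), another ring subunit, had 214.6, 237.2 and 216.5 CPM in control, 198.2, 209.7 and 192 CPM with DAC, 190.9, 182.6 and 210.2 CPM with SFN, and 150.2, 169 and 186.3 CPM with both drugs. Each treated library was below each control, and replicate 3 of the combination overlapped the SFN libraries. The log2 fold change was -0.41 with both drugs (SE 0.07, adjusted p = 0.000813) and -0.20 with SFN alone, which did not pass (adjusted p = 0.086).

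Of the 6 genes of helicase activation, 5 fell with the combination treatment, with a median log2 fold change of -0.44 over the 6. Cdc45 (Entrez Gene 12544, chromosome 16 from 18780447 to 18811987, minus strand) encodes the helicase cofactor and had the smallest adjusted p-value of the list. It had 74.9, 87.3 and 75.1 CPM in control, 72.7, 70.3 and 63.1 CPM with DAC, 70.1, 70 and 73.4 CPM with SFN, and 50.9, 56.9 and 53.7 CPM with both drugs. All treated libraries were below all controls, and the combination libraries were below all others. Cdc45 fell by 31.9% with both drugs (log2 fold change -0.55, SE 0.07, adjusted p = 6.48e-05), and it was also lower than with DAC alone (-0.35, SE 0.07, adjusted p = 0.00448) and with SFN alone (-0.40, SE 0.07, adjusted p = 0.0243).

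Gins1 (Entrez Gene 69270, chromosome 2 from 150905400 to 150931280, plus strand), a subunit of the GINS complex, had 23.4, 24.5 and 21.4 CPM in control, 21, 23.4 and 20 CPM with DAC, 19, 14.2 and 20.3 CPM with SFN, and 11.2, 11.5 and 16.7 CPM with both drugs. The combination libraries lay below all control and DAC libraries, and replicate 3 of the combination was higher than replicate 2 of SFN. Gins1 fell by 43.7% (log2 fold change -0.83, SE 0.15, adjusted p = 0.000872). Over the 18 alternatives this value ranged from -1.09, without replicate 3, to -0.70, without replicate 2.

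Mcm10 (Entrez Gene 70024, chromosome 2 from 4989714 to 5012791, minus strand) encodes a factor that activates the loaded helicase. It had 115.1, 129.9 and 99.7 CPM in control, 100.9, 110.7 and 91.7 CPM with DAC, 95.4, 95.8 and 99.2 CPM with SFN, and 79.4, 84.9 and 85.7 CPM with both drugs. The SFN libraries were just below the lowest control, and the combination libraries were below all others. Mcm10 changed by -0.46 on the log2 scale with both drugs (SE 0.08, adjusted p = 0.000471) and by -0.24 with SFN (SE 0.08, adjusted p = 0.045). Gins2 and Gins4 also fell with both drugs, by 0.42 and 0.26 on the log2 scale, while Gins3 had -0.24 (adjusted p = 0.0971). Of the annotated exon bases of Gins2, 67.3% overlap Gse1 on the opposite strand, and the strand setting of the counting is not given in the sources used here.

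Of the sliding clamp and its loader, 5 of 6 genes fell with the combination treatment, and Rfc1, the large subunit of the loader, had -0.17 (adjusted p = 0.0815). Pcna (Entrez Gene 18538, chromosome 2 from 132249162 to 132253314, minus strand), the clamp itself, had 435.4, 462.2 and 439.1 CPM in control, 406.6, 405 and 379.4 CPM with DAC, 412, 378.4 and 434.8 CPM with SFN, and 314.5, 311.3 and 370.6 CPM with both drugs. Every treated library was below every control library, and the combination libraries were the lowest 3 of the 12. Pcna fell by 25.6% (log2 fold change -0.43, SE 0.07, adjusted p = 0.00041).

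Rfc3 (Entrez Gene 69263, chromosome 5 from 151642756 to 151651242, minus strand), a small subunit of the loader, had 56.8, 58 and 50.8 CPM in control, 51.4, 47.8 and 46.9 CPM with DAC, 50.3, 47.5 and 52.9 CPM with SFN, and 38, 39.2 and 40.5 CPM with both drugs. The single treatments overlapped the controls and the combination did not overlap any other group. Its log2 fold change with both drugs was -0.49 (SE 0.07, adjusted p = 0.000183), and it was lower than with DAC (-0.31, adjusted p = 0.0108) and than with SFN (-0.36, adjusted p = 0.031).

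Rfc4 (Entrez Gene 106344, chromosome 16 from 23113943 to 23127737, minus strand), also a small subunit, was uneven between repeats. It had 46.5, 43.2 and 52.1 CPM in control, 50, 41.6 and 44.8 CPM with DAC, 36.5, 39 and 49.1 CPM with SFN, and 28.7, 27.1 and 41 CPM with both drugs. Replicate 3 was the highest in control, SFN and the combination, and the combination overlapped SFN. The log2 fold change with both drugs was -0.56 (SE 0.10, adjusted p = 0.00105). Rfc2 and Rfc5 fell by 0.28 and 0.41 on the log2 scale.

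Among the DNA polymerases and primase, 5 of 6 genes fell with the combination treatment, with a median log2 fold change of -0.29. Prim2 (Entrez Gene 19076, chromosome 1 from 33453810 to 33669795, minus strand), the large subunit of primase, which makes the RNA primers, had 66.1, 77.9 and 59.3 CPM in control, 52.6, 62.1 and 56.9 CPM with DAC, 58.3, 62.2 and 60.3 CPM with SFN, and 45.5, 55.8 and 52.9 CPM with both drugs. The combination libraries were below all control and SFN libraries and overlapped DAC. Prim2 fell by 0.40 on the log2 scale with both drugs (SE 0.07, adjusted p = 0.00106), and its change with DAC alone, -0.24, was the furthest below 0 of the members in that comparison without passing (adjusted p = 0.23). Prim1, the catalytic subunit, fell by 24.7% with both drugs (adjusted p = 0.00337). The catalytic subunits Pold1 and Pole had log2 fold changes of -0.28 and -0.30 and passed, and Pola1 had -0.20 (adjusted p = 0.0748).

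Of the genes for single-strand binding and Okazaki fragment processing, Fen1, Lig1 and Rpa2 fell with the combination treatment and Rpa1 had -0.18 (adjusted p = 0.0505). Lig1 (Entrez Gene 16881, chromosome 7 from 13277283 to 13311433, plus strand), the ligase that seals Okazaki fragments, had 176.9, 206.6 and 174.2 CPM in control, 159.1, 179.2 and 149.5 CPM with DAC, 177.6, 160.8 and 169.9 CPM with SFN, and 132.8, 136.8 and 138.5 CPM with both drugs. The combination libraries lay within a narrow range below all others. Lig1 fell by 26.7% (log2 fold change -0.45, SE 0.07, adjusted p = 0.000348).

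Fen1 (Entrez Gene 14156, chromosome 19 from 10199132 to 10204169, minus strand), the flap endonuclease, had 105, 111.3 and 107.9 CPM in control, 99.4, 106 and 99 CPM with DAC, 101.5, 101.1 and 106.2 CPM with SFN, and 83.2, 85.8 and 86.8 CPM with both drugs. The combination libraries were below all others, and the single treatments overlapped control. Fen1 fell by 21.1% (log2 fold change -0.34, SE 0.05, adjusted p = 0.000281), with 84.2% of its annotated exon bases overlapped by genes on the opposite strand.

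Rpa2 (chromosome 4 from 132768332 to 132778752, plus strand), a subunit of the single-strand binding complex, had 62.6, 64.6 and 61.7 CPM in control, 56.9, 52.8 and 57.9 CPM with DAC, 55.9, 54.7 and 64.7 CPM with SFN, and 45.3, 51.8 and 48.6 CPM with both drugs. The DAC and combination libraries were below all controls, and replicate 3 of SFN was the highest of all 12. The log2 fold change with both drugs was -0.38 (SE 0.07, adjusted p = 0.00144).

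All 5 genes of deoxynucleotide synthesis fell with the combination treatment. Dut (Entrez Gene 110074, chromosome 2 from 125247190 to 125258608, plus strand) encodes the dUTPase that keeps uracil out of DNA. It had 97.5, 96.9 and 103.6 CPM in control, 94.5, 86.9 and 88.1 CPM with DAC, 96.1, 87.1 and 109.2 CPM with SFN, and 70.5, 70.2 and 80.6 CPM with both drugs. The combination libraries were below all others, and the SFN libraries spread across the control range. Dut fell by 25.8% with both drugs (log2 fold change -0.43, SE 0.07, adjusted p = 0.00027) and had -0.03 with SFN alone (adjusted p = 0.80). Tyms, the thymidylate synthase gene, had the largest change of these enzymes, -0.51 on the log2 scale (SE 0.11, adjusted p = 0.00243). Tk1, the thymidine kinase of S phase, had 0.11 with SFN (adjusted p = 0.297) and -0.31 with both drugs (SE 0.07, adjusted p = 0.00274). Rrm1 and Rrm2, the subunits of ribonucleotide reductase, fell by 0.31 and 0.21 on the log2 scale.

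Of the 4 E2F and cyclin E genes, 2 fell and 1 rose with the combination treatment. E2f1 and E2f2, which encode activating E2F factors, had log2 fold changes of -0.23 (adjusted p = 0.0118) and -0.38 (adjusted p = 0.00718) with both drugs. Ccne1 (Entrez Gene 12447, chromosome 7 from 38097984 to 38107534, minus strand), a cyclin E gene whose product drives entry into S phase with Cdk2, was the only member that rose. It had 73, 88.2 and 74.7 CPM in control, 80.8, 95.8 and 74.6 CPM with DAC, 90.3, 102.3 and 100 CPM with SFN, and 79.1, 98.6 and 90.2 CPM with both drugs. All 3 SFN libraries were above all 3 controls, while the combination overlapped the controls. Ccne1 rose by 24.3% with SFN (log2 fold change 0.31, SE 0.07, adjusted p = 0.00588) and by 13.6% with both drugs (0.18, SE 0.07, adjusted p = 0.0479). The call with both drugs was kept in 3 of 18 alternatives, and the one with SFN in 15 of 18. Ccne2, the other cyclin E gene, had 0.21 with SFN (adjusted p = 0.103) and -0.14 with both drugs (adjusted p = 0.221), and it was lower with both drugs than with SFN alone (-0.35, SE 0.08, adjusted p = 0.0489).

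Chaf1a and Chaf1b, subunits of the chromatin assembly factor that deposits histones behind the fork, fell with SFN and with both drugs. Chaf1b (Entrez Gene 110749, chromosome 16 from 93883901 to 93906115, plus strand) had 83.1, 90.6 and 74.9 CPM in control, 73.9, 78.4 and 67.1 CPM with DAC, 69.5, 64 and 72 CPM with SFN, and 55.3, 55.4 and 60.7 CPM with both drugs. The SFN libraries were below all controls, and the combination libraries were below all others. Its log2 fold change was -0.27 with SFN (SE 0.08, adjusted p = 0.0337) and -0.54 with both drugs (SE 0.08, adjusted p = 0.000239).

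Chaf1a (Entrez Gene 27221, chromosome 17 from 56040439 to 56072289, plus strand) had 151.5, 171 and 152.8 CPM in control, 136.1, 153.5 and 133 CPM with DAC, 138.3, 129 and 141.3 CPM with SFN, and 120.2, 124.3 and 122.8 CPM with both drugs. The order of the groups was as for Chaf1b. It changed by -0.22 with SFN (SE 0.06, adjusted p = 0.0367) and by -0.37 with both drugs (SE 0.06, adjusted p = 0.000675) on the log2 scale. Ubxn6 on the opposite strand overlaps 52.5% of its annotated exon bases.

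**Figure D2:**
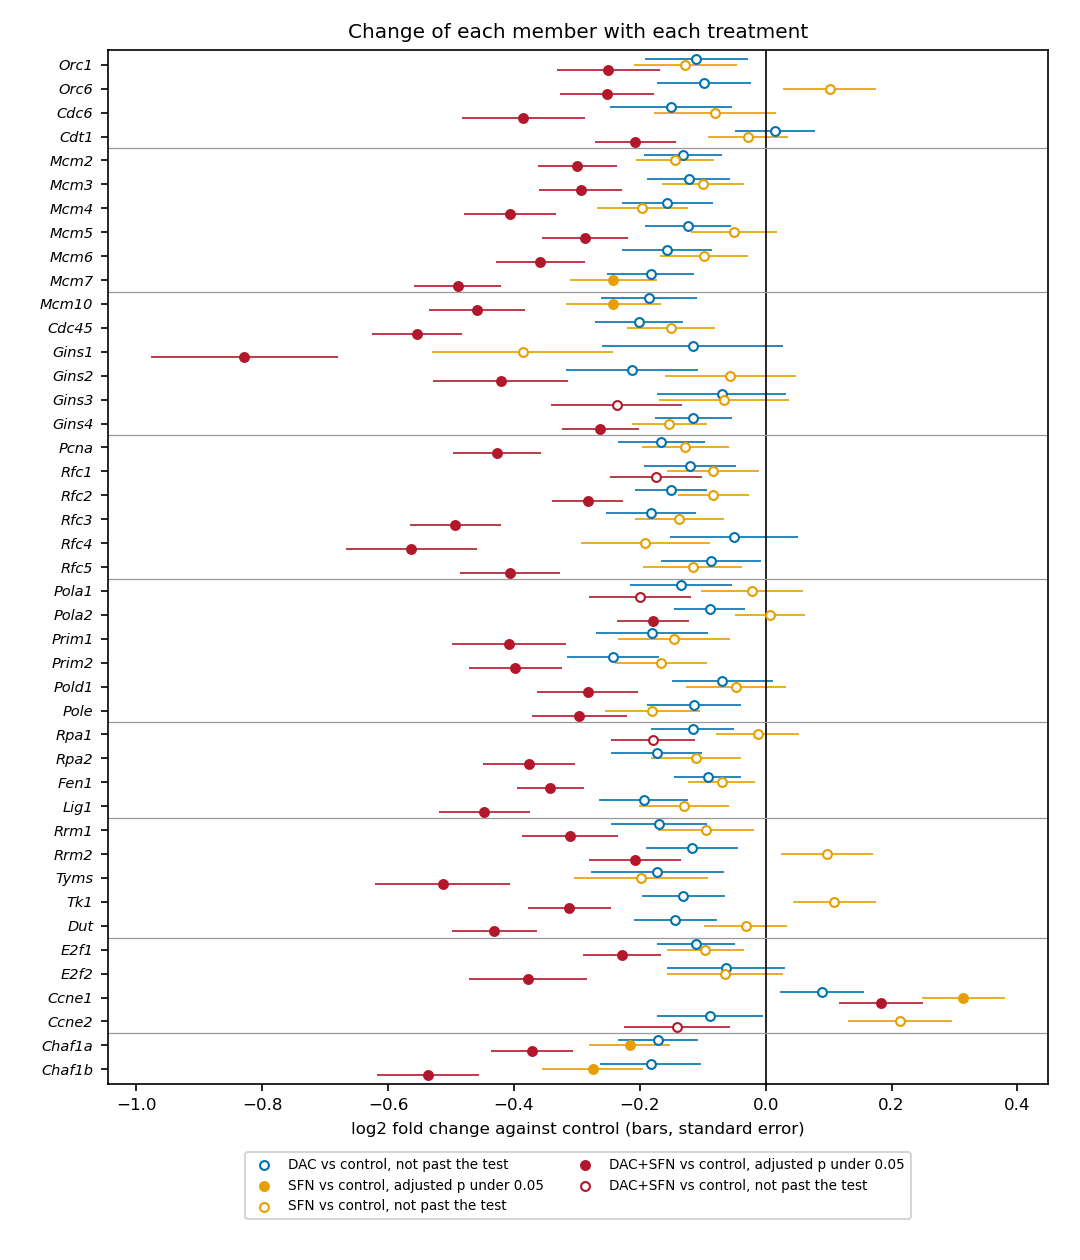
Log2 fold change of each of the 43 genes against control with DAC, SFN and DAC+SFN, with bars for the standard error (3 replicates a group) and lines between roles. Filled points passed an adjusted p-value under 0.05, and with both drugs 37 filled points lie below 0 and 1, Ccne1, above it.

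With SFN single treatment, 4 members fell (Mcm7, Mcm10, Chaf1a and Chaf1b) and 1 rose (Ccne1) compared to control. Of all genes tested, 5.65% fell and 8.27% rose, so the share of members that fell, 9.3%, was near the background. The median log2 fold change of the list was -0.10, beside 0.004 for all genes. All 3 SFN libraries lay below all 3 controls for 13 members, against 9.93% of all genes. The median difference within a repeat was -0.05, -0.25 and 0.02 in repeats 1, 2 and 3, so that repeat 2 carried most of the shift and repeat 3 had none. Without replicate 3, 11 members passed, with 15.7% of all genes in either direction, where the full fit called 13.9%. None passed without replicate 1 (5.4% of all genes), without replicate 2 (3.72%) or without a term for the replicate number (0.198%). Leaving out single libraries gave 1 member without control replicate 1 (7.48% of all genes), control replicate 2 (6.58%) or SFN replicate 2 (6.25%), and 2 without SFN replicate 1 (8.71%).

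With DAC single treatment no member passed an adjusted p-value under 0.05 in edgeR, and 0.18% of all genes did. The estimates were nonetheless nearly all below 0, 41 of 43, with a median of -0.13 beside 0.005 for all genes. At an unadjusted p-value under 0.05, 15 members were lower, against 10.1% of all genes in either direction. All 3 DAC libraries lay below all 3 controls for 9 members, a pattern of 4.34% of all genes. Here the repeats were alike, with median differences of -0.13, -0.13 and -0.15. In all 3 repeats 37 members were lower with DAC, beside 2412 of all 11638 genes. DESeq2 also gave 0 members. When only the control and DAC libraries entered the fit, 14 members passed, all lower, and 5.82% of all genes in either direction.

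**Figure D3:**
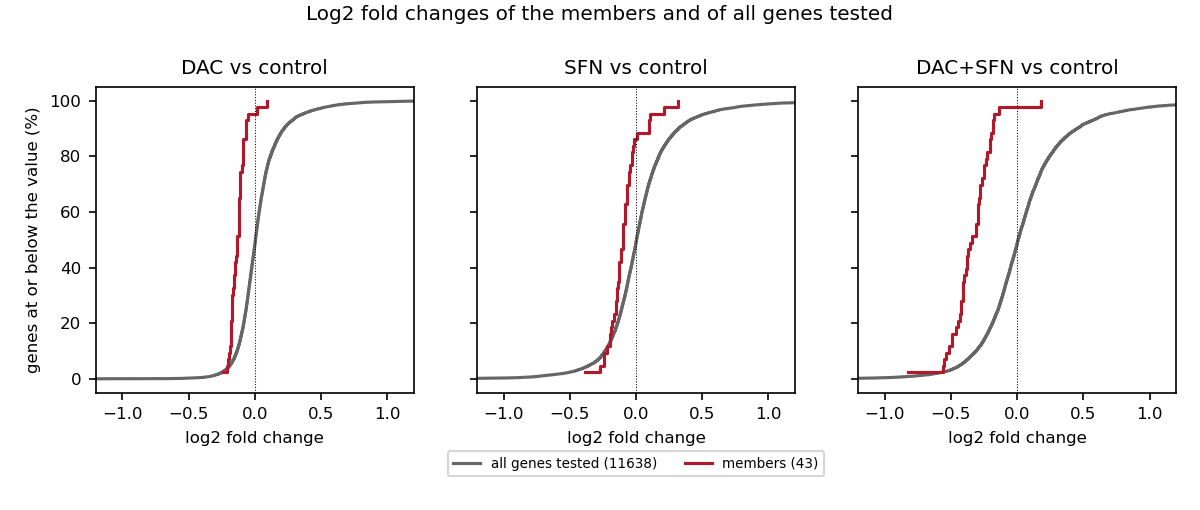
Cumulative share of genes (%) at or below each log2 fold change, for the 43 members and for all 11638 genes tested, with each treatment compared to control. At its middle the members' line lies to the left of that of all genes in each panel. The medians are -0.13 with DAC, -0.10 with SFN and -0.34 with both drugs. The lines cross at the lower end in each panel, since the lowest member lies above the lowest of all genes.

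The combination treatment was then compared with each single treatment. Compared to DAC, 17 members fell and none rose, while 6.6% of all genes fell, and the median was -0.20. The lowest were Gins1 (-0.71, SE 0.15, adjusted p = 0.00587) and Rfc4 (-0.51, SE 0.10, adjusted p = 0.00482). Both chromatin assembly genes, 4 of 6 clamp and clamp loader genes and 3 of 6 helicase activation genes fell here, but none of the 6 polymerase and primase genes passed. The count was 28 without replicate 3, with 20.9% of all genes in either direction, where the full fit called 16.1%. It was 2 without replicate 2 (7.47% of all genes), 0 without replicate 1 (2.12%) and 0 without the replicate number in the model (0.172%). It was 9 without DAC replicate 1 (7.71%), 5 without DAC replicate 2 (8.65%), 5 without combination replicate 1 (6.62%), 10 without combination replicate 2 (11.6%) and 5 with only the groups compared in the fit (6.51%).

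Compared to SFN, all 43 estimates were below 0, with a median of -0.25, and 9 members fell, while 0.67% of all genes fell. These were Orc6, Cdc45, Pcna, Rfc3, Fen1, Lig1, Tk1, Dut and Ccne2. Tk1 had 188, 171.5 and 202 CPM with SFN and 130.9, 142.6 and 145.9 CPM with both drugs. These groups did not overlap, and Tk1 was 0.42 lower on the log2 scale, a change of -25.3% (SE 0.07, adjusted p = 0.0223). With only SFN and combination libraries in the fit, 35 members passed, all lower, and 11.1% of all genes in either direction, where the full fit called 1.61%. None passed without replicate 1, replicate 2, SFN replicate 1, SFN replicate 3, combination replicate 1 or the replicate number in the model, fits in which at most 0.026% of all genes passed. Without combination replicate 2, 3 members passed (0.698% of all genes), and without combination replicate 3, 27 did (6.06%).

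The interaction of DAC and SFN asks whether the change with both drugs differs from the sum of the single changes on the log2 scale. No member passed the adjusted threshold (lowest adjusted p = 0.847), nor did any other gene (0% of genes tested), and DESeq2 gave 0 members as well. The estimate was below 0 for 39 of 43 members, with a median of -0.10, beside -0.007 for all genes. Over the repeats the members' median had an SD of 0.09, near its own size. An unadjusted p-value under 0.05 was found for 7 members, each lower with both drugs than the sum, against 5.87% of all genes. These were Tk1 (-0.29, 95% interval -0.49 to -0.09), Dut, Fen1, Orc6, Ccne1, Ccne2 and Rfc4. The intervals were wide, from -0.77 to 0.12 for Gins1, so that both a sum of the single changes and a larger joint change lay within the interval of most members.

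**Figure D4:**
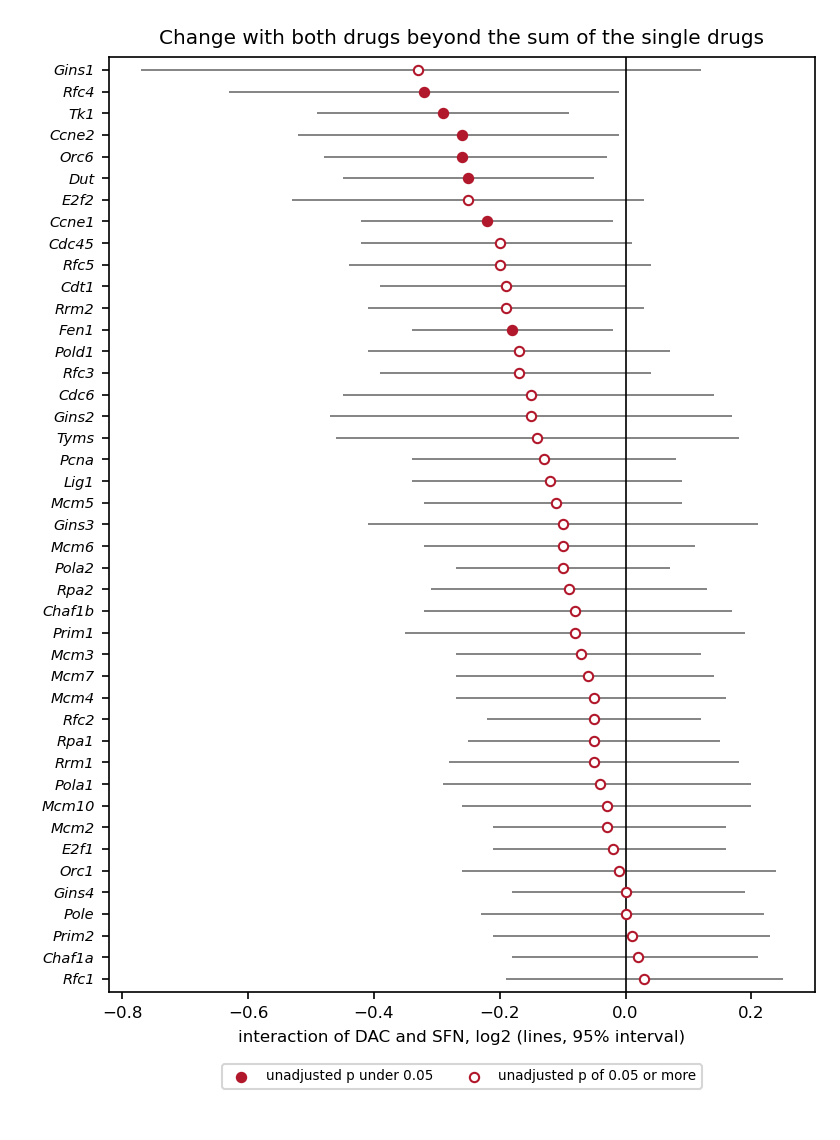
Interaction of DAC and SFN for each of the 43 genes on the log2 scale, with 95% intervals; 0 means that the change with both drugs equals the sum of the single changes. Filled points mark the 7 genes with an unadjusted p-value under 0.05, and 39 of the 43 estimates are below 0.

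The members also varied between repeats whatever the treatment. Levels differed with the replicate number in 7 members (16.3%), below the 33.9% of all genes. Replicate 2 had the highest level in 29 of the 43. Cdt1 was the clearest case, at -0.21, 0.23 and -0.02 around its mean on the log2 scale in repeats 1, 2 and 3 (adjusted p = 0.000174), and Rfc4 followed another order, at -0.05, -0.14 and 0.19 (adjusted p = 0.0255). The count of members was 0 to 10 when libraries or repeats were left out. It was 0 without replicate 2 (5.1% of all genes), 2 without replicate 1 (23.8%) or DAC replicate 2 (25.1%) and 4 without SFN replicate 1 (26.8%). It was 3 without control replicate 1 (27.5%), control replicate 2 (27.8%), DAC replicate 1 (29.4%) or combination replicate 2 (27.3%).

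Genes around the list were counted in the same fit for the combination treatment compared to control. In this comparison 14.7% of all genes tested fell and 17.0% rose. Of 43 other replication genes, 31 fell and none rose, with a median log2 fold change of -0.27. The 3 with the smallest adjusted p-values were Nasp, a histone chaperone gene (-0.64, SE 0.09, adjusted p = 9.68e-05), Asf1b, which encodes a histone chaperone at the fork (-0.43, SE 0.06, adjusted p = 0.000159), and Timeless, of the fork protection complex (-0.40, SE 0.06, adjusted p = 0.000272). Nasp had 148, 143.9 and 141.8 CPM in control and 79.9, 89.5 and 110.2 CPM with both drugs, without overlap.

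Of 31 other genes of nucleotide synthesis, 8 rose and 7 fell, with a median of 0.03. Of all genes tested, 17.0% rose and 14.7% fell. Shmt2, a mitochondrial enzyme of one-carbon metabolism, fell as far with SFN alone (-0.62, SE 0.06, adjusted p = 1.78e-05) as with both drugs (-0.65, SE 0.06, adjusted p = 4.53e-06). Impdh1, of guanine nucleotide synthesis, rose by 0.68 (SE 0.10, adjusted p = 0.000222), and Prps2, which makes the ribose precursor of nucleotides, rose by 0.37 (SE 0.07, adjusted p = 0.00168).

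Regulators of the E2F step moved in both directions, 6 of 28 up and 11 down with the combination treatment. The shares of all genes tested were 17.0% up and 14.7% down. The 3 with the smallest adjusted p-values rose, namely the cyclin D genes Ccnd1 (1.61, SE 0.10, adjusted p = 2.55e-07) and Ccnd2 (0.82, SE 0.07, adjusted p = 2.34e-06) and Cdkn1a, the gene of the CDK inhibitor p21 (1.36, SE 0.11, adjusted p = 1.91e-06). Cdkn1a had 239.9, 371.9 and 291.4 CPM in control and 784.2, 964.5 and 578.8 CPM with both drugs, without overlap. With DAC alone Cdkn1a rose by 0.60 (SE 0.11, adjusted p = 0.0441) and with SFN alone by 0.96 (SE 0.11, adjusted p = 6.27e-05).

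The members with and without an E2F word in the promoter were set side by side for the combination treatment. The median log2 fold change was -0.29 over the 13 members with a word and -0.36 over the 22 without one, and 11 and 19 of them fell. For the 8 members not in the promoter table it was -0.35, with 7 lower.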

How the data were processed

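Poly(A) RNA of B16F10 cells was sequenced in 4 groups of 3 replicates. The authors deposited read counts per gene symbol, 1 file per library, with no normalization. Reads were checked with FastQC 0.11.7, trimmed with Trimmomatic 0.38, aligned to mm10 with TopHat2 2.1.1 and counted with HTSeq. Only uniquely aligned reads were kept, so reads shared with near-identical copies, such as any processed pseudogenes of Pcna and Tyms, would be lost. How many reads of the members this took was not tested. The annotation and strand setting of the counting are not given in the sources used here. Library totals set the precision, and 1 CPM stood for 15.9 to 27.3 counts.

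Genes that reached 1 CPM in 3 or more libraries were kept, scaled by TMM and tested with glmQLFTest (legacy fit, two-sided) in edgeR 4.0.16 in R 4.3.3. The 12 libraries were fitted together, with replicate number as a block in place of the batch that the study's methods correct for without naming it. Library numbers in the labels follow the replicate number, so a library batch cannot be told apart from it. After the group means were removed, libraries with the same replicate number correlated across genes by 0.27 to 0.73 over 18 pairs. P-values were adjusted by Benjamini-Hochberg over all genes in each of the 6 comparisons, and standard errors were taken from the log2 fold change and the square root of F. Log2 fold changes carry a prior count of 0.125, and those within repeats a prior count of 2. Levels per kilobase used the APPRIS principal transcript, and positions and overlaps came from GENCODE on mm10. Genes were followed by symbol, since some identifiers in the files belong to other genes. Among the members, the identifiers of Mcm2, E2f2 and Rpa2 did not match those of RefSeq. Promoters came from RefSeq. The members and gene lists were chosen with earlier results of these data known.

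Values in every library are given for the 15 members with the smallest adjusted p-values in any comparison and for the member with the highest mean CPM of each role without one, and 3 genes are named from each other list. The fits were tested on simulated data. Alternatives were other scalings, filters and samples, DESeq2 1.42.0, no block and a fold change above 2. Figures were drawn with matplotlib 3.10.9.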

Additional observations from a re-analysis of the deposited data

How the results depend on the processing

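No called value of a member reversed under any alternative. Under other scalings, filters, the version 4 fit of edgeR and DESeq2, between 66 and 69 of the 69 called values kept their call, against 24 with no replicate block (no pairing by replicate number) and 52 with only the samples of the groups compared. Leaving out libraries or repeats kept 393 of 621. With no replicate block, the members called were 0 for SFN, 24 for DAC+SFN, 0 for DAC+SFN against DAC and 0 for DAC+SFN against SFN. With only the groups compared, they were 14 for DAC, 5 for DAC+SFN against DAC and 35 for DAC+SFN against SFN. DAC+SFN against SFN gave 22 with no filter on low counts (2.79% of all genes) and 15 with DESeq2 (3.52%). The main fit called 1.61% of all genes there. No member passed when a fold change above 2 was also required, so all 4 of these comparisons then gave 0. On total counts without TMM, the median with DAC was -0.12.

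When 1 library or 1 repeat was left out, the members called ranged from 0 to 11 for SFN, from 17 to 40 for DAC+SFN, from 0 to 28 for DAC+SFN against DAC, from 0 to 27 for DAC+SFN against SFN and from 0 to 10 for the replicate number, and stayed at 0 for DAC and for the interaction. The share of all genes called moved as well, from 3.72% to 15.7% for SFN and from 12.7% to 36.2% for DAC+SFN. It ranged from 2.12% to 20.9% for DAC+SFN against DAC and from 0% to 6.06% for DAC+SFN against SFN. The medians of the members ranged from -0.18 to -0.09 for DAC and from -0.33 to -0.19 for DAC+SFN against SFN. Values that never passed the test turned in sign: Cdt1 with DAC (-0.03 to 0.06) and with SFN (-0.08 to 0.01), Rfc4 with DAC (up to 0.09), Dut with SFN (-0.10 to 0.02) and Gins1 with DAC (-0.24 to 0). The cause was not tested. Members had 240 counts or more in each library, and for the lowest of them counting error is part of the spread between repeats.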

Other observations

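Genes of mitosis, which act after replication, moved like the members. With the combination treatment compared to control, 18 of 22 fell and none rose, with a median log2 fold change of -0.33. Of all genes tested, 14.7% fell and 17.0% rose. Cenpa, the histone of the centromere, had 63, 76.7 and 73.5 CPM in control and 43.6, 57.1 and 56.7 CPM with both drugs, and fell by 26.4% (SE 0.06 on the log2 scale, adjusted p = 0.000131). The groups did not overlap. Birc5, which encodes survivin, fell by 29.3% (adjusted p = 0.000209) and Ccnb2, a cyclin B gene, by 29.9% (adjusted p = 0.000234). With DAC alone no mitosis gene passed, though all 22 estimates were below 0, with a median of -0.18.

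Few genes of the replication checkpoint passed. Of 10, 2 fell with the combination treatment, a share of 20% beside 14.7% of all genes tested, and none rose. These were Chek1, a checkpoint kinase gene (-0.40, SE 0.09, adjusted p = 0.00469), and Rad17, of the clamp loader of the checkpoint (-0.26, SE 0.07, adjusted p = 0.0132). The median of the list was -0.01. Atrip, the partner of the kinase Atr, had 0.10 (SE 0.08, adjusted p = 0.397). Whether the lists differ from each other was not tested.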
